A study of Mus musculus with 6 samples.

Results

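The 10 genes described here belong to the canonical Wnt pathway, and they were taken by gene symbol from the table of normalized counts: Ctnnb1, Axin1, Axin2, Apc, Gsk3b, Lef1, Tcf7, Tcf7l1, Tcf7l2 and Sp5. All 10 were present among the 23412 rows of the table. All 10 also passed the filter on low values, a mean of at least 5 normalized counts over the 6 libraries, which left 14276 genes for testing.

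RNA-seq was performed on undifferentiated mouse embryonic stem cells (mESCs) of the 129Sv strain, with 3 libraries from the parental wild-type line R1 and 3 from the HN line, which is Htt-/- because the promoter and exon 1 of the huntingtin gene were deleted. Each genotype was represented by 1 cell line. Same-numbered replicates of both lines share a collection date, and the dates of replicates 1, 2 and 3 differ. Cells of both lines were grown without feeders on gelatin, in serum with LIF and inhibitors of FGF receptors (SU5402), MEK (PD184352) and GSK3 (CHIR99021). Thus wild-type and mutant cells alike were grown with an inhibitor of the kinase encoded by Gsk3b. The activity of the kinase was not measured in these data, and no library without the inhibitors was analysed here.

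In the canonical Wnt pathway, a cytoplasmic complex built on the Axin and Apc scaffolds lets the kinase GSK3 mark beta-catenin, the product of Ctnnb1, for degradation. Wnt ligands, or an inhibitor of GSK3, stop this degradation, and beta-catenin then binds the TCF/LEF factors (Tcf7, Tcf7l1, Tcf7l2 and Lef1) on DNA. Axin2, Sp5, Lef1 and Tcf7 are widely used targets of this response, and in mESCs the pathway is known for supporting self-renewal, in part by relieving repression by Tcf7l1.

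The promoters of Sp5 and Axin2 are shown because these target genes passed in some, though not all, of the comparisons of the lines given below. The TCF/LEF core motif was searched on both strands as CTTTG followed by AA, AT, TA or TT, and matches are in capitals, so that AACAAAG is a match on the opposite strand. The sequences are the 250 bases before the RefSeq start on the plus strand of GRCm38.p6, at chr2:70474673-70474922 for Sp5 and chr11:108920099-108920348 for Axin2.
Sp5: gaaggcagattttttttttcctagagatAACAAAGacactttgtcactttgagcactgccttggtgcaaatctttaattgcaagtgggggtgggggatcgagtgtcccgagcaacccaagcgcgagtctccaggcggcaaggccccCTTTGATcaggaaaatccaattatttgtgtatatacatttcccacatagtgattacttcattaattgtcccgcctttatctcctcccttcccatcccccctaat
Axin2: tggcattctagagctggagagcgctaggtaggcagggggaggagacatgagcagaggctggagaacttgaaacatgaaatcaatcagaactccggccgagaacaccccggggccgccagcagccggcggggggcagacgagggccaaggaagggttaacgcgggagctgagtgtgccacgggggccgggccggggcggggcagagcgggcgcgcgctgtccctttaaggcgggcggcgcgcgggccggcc
The Sp5 window held 2 matches, beginning 222 and 104 bases before the start, and the Axin2 window held 0. Windows of 300 bases, from 250 before to 50 after a start, were found for 8 of the 10 genes, 14 windows in all, and 3 of the 14 had a match. The other matches were in 1 of the 4 Lef1 windows (TACAAAG) and in 1 of the 2 Tcf7l2 windows (CTTTGTT). Among all 32851 RefSeq windows of this length, 16.9% had at least 1 match and 1.94% had at least 2. A match describes letters only, and binding was not measured.

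The libraries held between 1640391 and 3866717 reads on genes. Htt itself had 230, 257 and 199 normalized counts in R1 and 18.3, 58.1 and 54.2 in HN, so it was lower in each of the 3 HN libraries (log2 difference -2.52, SE 0.37, limma with Benjamini-Hochberg adjusted p = 0.0141). The 8 mESC markers summed to between 12428 and 19869 normalized counts in each library, whereas the lists for primitive endoderm, mesoderm, neural, trophoblast and fibroblast cells each summed to between 14.2 and 308, and 1 trophoblast marker had at most 3 reads in every library. The 4 neural markers were apart between the lines, with sums of 249 to 308 in R1 and 151 to 237 in HN, and 1 of them, Tubb3, passed as lower with the date block (-0.76, limma adjusted p = 0.000745). The part of this difference in the results below was not tested. The third collection date stood apart in both lines: genes with a mean of 5 to 20 had a median log2 difference of 1.06 from the earlier dates, and genes with a mean of 100 to 500 had one of -0.28. The third-date libraries also had reads on the most genes, 20675 in R1 and 20542 in HN, against 18133 to 19083 elsewhere, although neither was the deepest.

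Taken by line, the 10 genes were mostly higher in HN than in R1, but not beyond the spread of the libraries when the collection date was left out of the model. The median log2 difference (HN minus R1, of normalized count + 1) was 0.30 over the 10 genes and -0.01 over all 14276 tested. None of the 10 passed at an adjusted p under 0.05 in limma without a block (0 of 10, against 0.245% of all genes), and 2 of the 10, Lef1 and Sp5, had an unadjusted p under 0.05, as did 5.91% of all genes. Without the block, 0 of 10 passed in edgeR and in DESeq2 as well. With the collection date as a replicate block, 4 of the 10 passed, all higher in HN: Axin2, Lef1, Sp5 and Apc, where 5.46% of all genes passed as higher and 4.02% as lower. The same 4 genes passed in edgeR with the block (6.44% of all genes higher), and 0 of 10 passed in DESeq2 with the block (2.34% higher), with 4 at an unadjusted p under 0.05, as were 10.7% of all genes. The DESeq2 adjusted p of these 4 genes ranged from 0.107 for Axin2 to 0.280 for Sp5. Tcf7l1 and Tcf7l2 had no adjusted p in DESeq2 with the block. The p-values without the block measure the spread between libraries of 2 cell lines. Those with the block measure the spread of the difference between these 2 lines over the collection dates. In bulk RNA, a difference in the share of cells that express a gene cannot be told apart from a difference in RNA per cell.

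**Figure D1:**
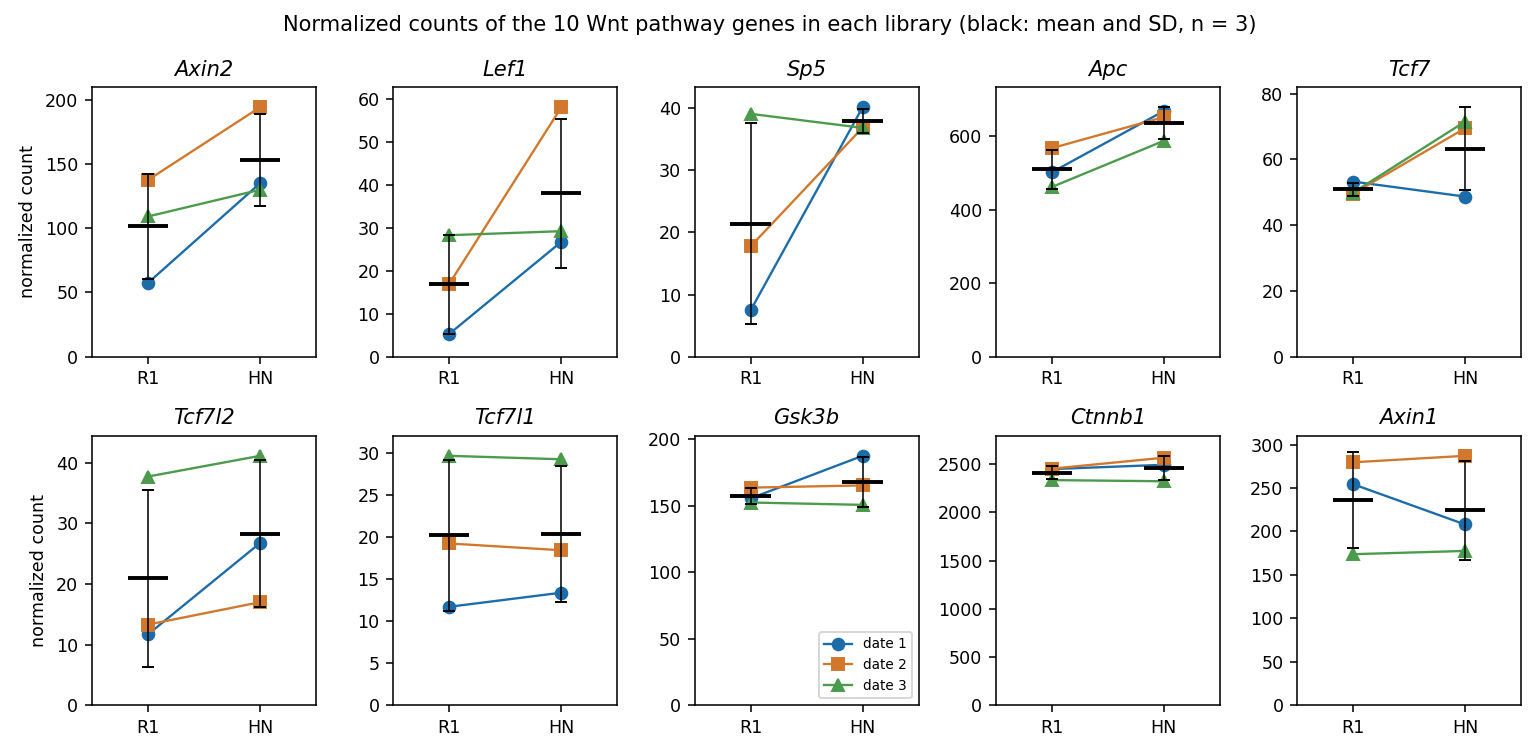
Normalized counts (y axis, from 0) of each of the 10 genes in the 3 R1 and 3 HN libraries, with lines joining libraries of the same collection date and black bars giving the mean and SD. Apc was the only gene with all HN libraries above all R1 libraries, and Lef1 and Sp5 were higher in HN on dates 1 and 2 and nearly equal on date 3.

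Axin2 encodes a scaffold of the degradation complex that is itself induced by beta-catenin, and is thus a negative feedback target. It lies on chromosome 11 from 108920349 to 108950783 (GRCm38). Axin2 had 57.5, 138 and 109 normalized counts in R1 and 135, 194 and 130 in HN on the 3 dates. HN was higher in each of the 3 same-date pairs, while the lines overlapped, since the second R1 library exceeded HN on both other dates. Mean levels were 101 ± 40.6 for R1 and 153 ± 35.7 for HN (SD, n = 3). The log2 difference of 0.65 (SE 0.31) did not pass without the block (limma adjusted p = 0.891). With the date block the SE was 0.16 and Axin2 passed (limma adjusted p = 0.00453). The pair differences were 1.22, 0.49 and 0.25 on the log2 scale, and without the first date the blocked difference was 0.37 and did not pass (limma adjusted p = 0.153).

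Lef1, which encodes a TCF/LEF factor with mainly activating function and is also a Wnt target, showed the highest fold difference of the 10. It spans chromosome 3 from 131110471 to 131224356. The R1 libraries had 5.32, 17.0 and 28.3 normalized counts, and the HN libraries 26.8, 58.1 and 29.2. The HN libraries exceeded their R1 partners on dates 1 and 2, whereas the third-date libraries were nearly equal. These values rest on 5 to 82 reads per library. The log2 difference was 1.30 (SE 0.54, limma adjusted p = 0.757), and with the date block the SE was 0.32 and Lef1 passed (limma adjusted p = 0.00642). Without the second date the blocked difference of 1.09 did not pass (limma adjusted p = 0.209). An antisense gene, Gm43352, overlaps 13.7% of the exon length of Lef1, and reads of the pair cannot be told apart without strand.

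Sp5, a zinc finger factor gene and direct Wnt target whose promoter is printed above, followed the same course. It occupies chromosome 2 from 70474923 to 70477729. Sp5 had 7.45, 17.8 and 39.1 normalized counts in R1 and 40.2, 36.9 and 36.8 in HN. The HN libraries lay close together, and the R1 libraries ranged from far below them to just above. The log2 difference was 1.07 (SE 0.48, limma adjusted p = 0.834), and with the date block it passed (SE 0.31, limma adjusted p = 0.0228). Without the first date the blocked difference was 0.46 and did not pass (limma adjusted p = 0.408), and without the third it was 1.65 and passed (limma adjusted p = 5.28e-05). Without the second date it did not pass (limma adjusted p = 0.0918).

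The difference between lines on the third date was smaller than on the earlier dates for the target genes Axin2, Lef1 and Sp5. Tcf7, also a target, went the other way, with pair differences of -0.13, 0.48 and 0.51. Tcf7l2, which is not among the targets named above, narrowed like Axin2, with pair differences of 1.13, 0.33 and 0.12. For Lef1 the pair differences were 2.13, 1.71 and 0.05 on the log2 scale, and for Sp5 they were 2.28, 1.01 and -0.08. The change of the line difference, the third date minus the mean of the earlier dates, was tested after these values were seen. It was -1.88 (SE 0.61) for Lef1 (limma adjusted p = 0.238), -1.73 (SE 0.57) for Sp5 (adjusted p = 0.244) and -0.61 (SE 0.29) for Axin2 (adjusted p = 0.548). For Tcf7l2 it was -0.61 (SE 0.61), for Gsk3b -0.16, for Tcf7l1 -0.08 and for Ctnnb1 -0.05. Positive values were seen for Apc (0.04), Axin1 (0.16) and Tcf7 (0.33). None passed after adjustment (0 of 10, against 0.147% of all genes), and 3 of the 10 had an unadjusted p under 0.05, as did 8.3% of all genes. Over the alternatives run, the adjusted p ranged from 0.185 to 0.563 for Lef1 and from 0.189 to 0.622 for Sp5. Within R1, the third date was above the mean of the earlier dates by 1.46 for Lef1 and 1.67 for Sp5 on the log2 scale, whereas within HN the corresponding differences were -0.42 and -0.061. For all genes of their level, with a mean of 20 to 50, the median of the same difference was 0.12 within R1 and 0.058 within HN.

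**Figure D2:**
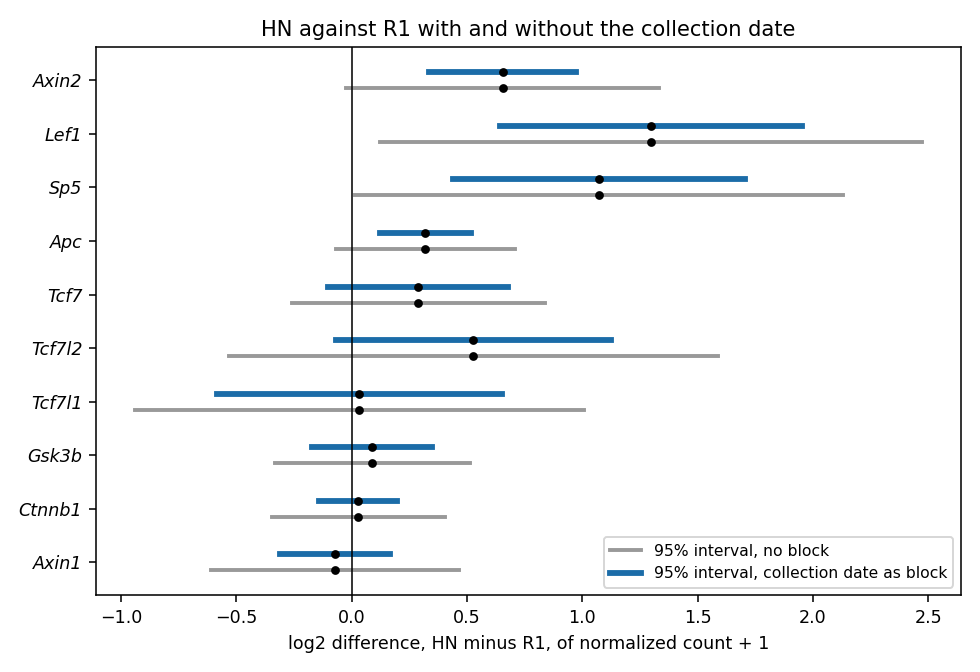
Log2 difference between HN and R1 (x axis, of normalized count + 1) for the 10 genes, with points at the estimate, grey bars for the 95% interval without a block and blue bars for the interval with the collection date as a block. The blue intervals of Axin2, Lef1, Sp5 and Apc lie above 0, and for Axin2 and Apc the grey ones include 0.

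Among the genes of the degradation complex, Apc passed beside Axin2, and like Axin2 only with the date block. Apc encodes the large scaffold that binds beta-catenin within the complex, and lies on chromosome 18 from 34220924 to 34322552. It had 502, 568 and 462 normalized counts in R1 and 669, 653 and 588 in HN. All 3 HN libraries were above all 3 R1 libraries, which held for 1 of the 10 genes and for 5.23% of all genes. The log2 difference was 0.32 (SE 0.18, limma adjusted p = 1), and with the date block Apc passed (SE 0.10, limma adjusted p = 0.0285). It did not pass when the first date (0.27, limma adjusted p = 0.126) or the second (0.38, limma adjusted p = 0.193) was left out.

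Ctnnb1, Axin1 and Gsk3b were close to equal in both lines. Ctnnb1, on chromosome 9 from 120929216 to 120960507, encodes beta-catenin and had 2447, 2452 and 2333 normalized counts in R1 and 2492, 2565 and 2321 in HN. Its log2 difference was 0.03, with a 95% interval from -0.14 to 0.20 with the date block (limma adjusted p = 0.908). Ulk4, on the opposite strand, overlaps 14.6% of the Ctnnb1 exon length. Axin1, the constitutively expressed scaffold on chromosome 17 from 26138688 to 26195811, had 254, 280 and 174 normalized counts in R1 and 208, 287 and 178 in HN. The values of Axin1 followed the date rather than the line, with a log2 difference between lines of -0.07 and a blocked 95% interval from -0.31 to 0.17. Gsk3b encodes 1 of the GSK3 kinases that the inhibitor in the medium targets, and lies on chromosome 16 from 38089001 to 38246084. It had 155, 163 and 152 normalized counts in R1 and 187, 165 and 151 in HN. The log2 difference of Gsk3b was 0.09, with a blocked interval from -0.17 to 0.35.

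The remaining TCF/LEF factors did not pass in either model. Tcf7, on chromosome 11 from 52252371 to 52283014, encodes a factor that mostly activates with beta-catenin. It had 53.2, 49.6 and 49.9 normalized counts in R1 and 48.7, 69.5 and 71.5 in HN. HN was higher on dates 2 and 3 and lower on date 1, in contrast to the order seen for Lef1 and Sp5 (log2 difference 0.29, blocked interval -0.10 to 0.68). Tcf7l1, the main repressor of the family in mESCs, on chromosome 6 from 72626378 to 72789254, had 11.7, 19.2 and 29.7 normalized counts in R1 and 13.4, 18.4 and 29.2 in HN. Its same-date libraries were almost equal, with a log2 difference of 0.03, although with 11 to 27 reads per library the blocked interval ran from -0.58 to 0.65. Tcf7l2, on chromosome 19 from 55741820 to 55933654, had 11.7, 13.3 and 37.7 normalized counts in R1 and 26.8, 17.0 and 41.2 in HN. It was higher in HN in each of the 3 pairs, but the log2 difference of 0.53 did not pass with the block (limma adjusted p = 0.309). In all, 4 of the 10 genes (Axin2, Apc, Lef1 and Tcf7l2) were higher in HN in all 3 pairs, against 20.3% of all genes.

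Per kilobase of exon, the 10 genes spanned a wide range, led by Ctnnb1 at 464 ± 12.9 normalized counts per kilobase in R1 and 474 ± 24.1 in HN (SD, n = 3). Axin1 followed at 61.6 ± 14.4 in R1 and 58.6 ± 14.8 in HN, and then Apc at 31.7 ± 3.31 and 39.5 ± 2.66. In R1, the libraries of these 3 genes did not overlap with their neighbours in this order. Below them in R1 came Tcf7 (19.4), Axin2 (18.4), Gsk3b (16.0), Sp5 (10.2), Tcf7l1 (5.15), Tcf7l2 (2.38) and Lef1 (1.92), each overlapping its neighbour. In HN the order was Axin2 (27.8), Tcf7 (24.1), Sp5 (18.1), Gsk3b (17.1), Tcf7l1 (5.19), Lef1 (4.33) and Tcf7l2 (3.23), where Apc and Axin2, and Gsk3b and Tcf7l1, were apart and the other neighbours overlapped. Thus Tcf7 was the leading TCF/LEF factor in both lines, with 68.5% ± 12.4 of the summed per-kilobase level of the 4 factors in R1 and 65.5% ± 1.52 in HN. Lef1 made up 2.40%, 7.11% and 9.45% of that sum in the R1 libraries and 10.9%, 16.7% and 7.79% in the HN libraries, so that the lines overlapped. Lengths were those of all annotated exons of a gene merged, such as 3828 bases for Axin1 and 16116 for Apc. The order of the genes and these shares depend on that choice of length.

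**Figure D3:**
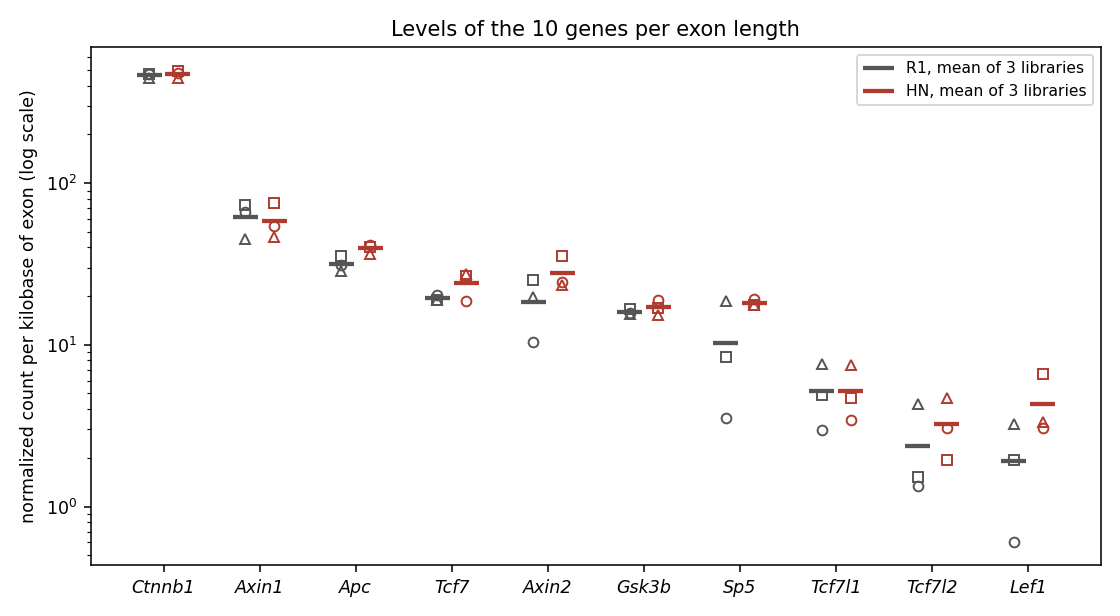
Normalized counts per kilobase of exon (log y axis) of the 10 genes, ordered by their R1 mean, with bars for the mean of 3 libraries and open circles, squares and triangles for collection dates 1, 2 and 3. Ctnnb1 was highest in both lines, at 464 in R1 and 474 in HN, and Lef1 and Tcf7l2 were lowest.

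For Axin1, Tcf7l1 and Tcf7l2 the difference between dates was larger in size than that between lines. The same held for Ctnnb1 (-0.10 for the date, 0.03 for the line) and Gsk3b (-0.14 and 0.09), neither of which passed for the date. With the line in the model, 4 of the 10 passed for the third date against the earlier dates, 3 higher and 1 lower, whereas 17.8% of all genes passed as higher and 23.2% as lower. Tcf7l2 was higher on the third date by 1.22 (SE 0.31, limma adjusted p = 0.00269) on the log2 scale, Tcf7l1 by 0.89 (SE 0.32, limma adjusted p = 0.0263) and Sp5 by 0.80 (SE 0.33, limma adjusted p = 0.0497). Axin1 was lower (-0.54, SE 0.13, limma adjusted p = 0.00121). The call for Sp5 rested on 1 library: without the third-date R1 library its difference was -0.06 (limma adjusted p = 0.931). Without that library, Tcf7l1 (0.86) and Tcf7l2 (0.91) did not pass either, and 1 of the 10 did. Genes of a similar level to Tcf7l1, Tcf7l2, Sp5 and Lef1, with a mean of 20 to 50, had a median of 0.08 for the same contrast, while Axin1 lies in the band with a median of -0.28. On the third date the summed primitive endoderm markers were 135 to 152 normalized counts against 34.0 to 57.2 before, and the fibroblast markers were 78.0 to 119 against 14.2 to 58.6. The trophoblast markers were 92.1 to 154 against 27.6 to 62.8, and the mESC markers were lower, at 12428 to 14502 against 16538 to 19869. The part of these values in the date differences was not tested.

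**Figure D4:**
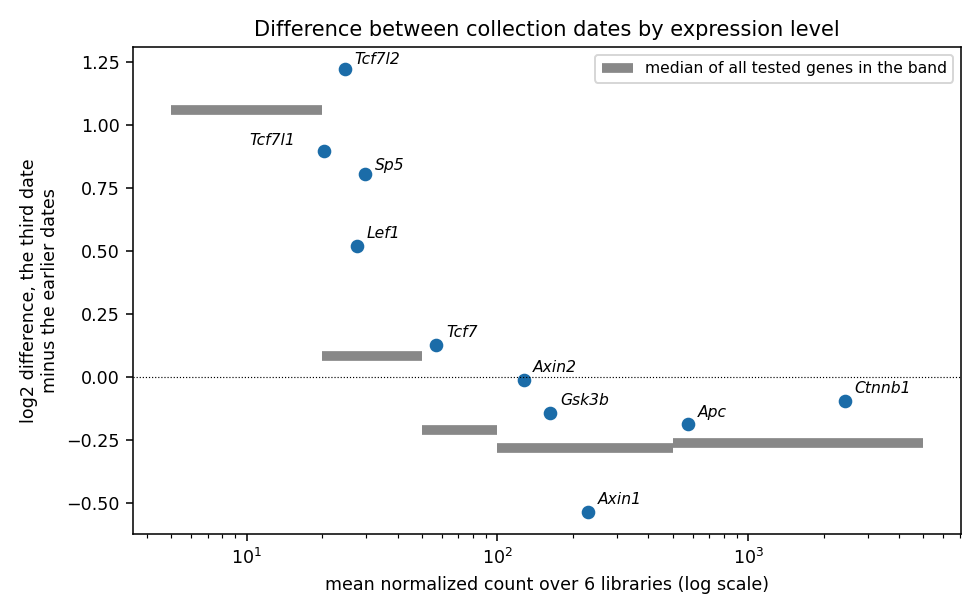
Log2 difference between the third collection date and the earlier dates (y axis) against the mean normalized count over 6 libraries (log x axis), with blue points for the 10 genes and grey bars for the median of all tested genes in 5 bands of level, the last of which has no upper limit. All genes but Axin1 lie above the median of their band, among them Tcf7l2, Sp5, Tcf7l1 and Lef1, the genes with the lowest levels. Axin1 lies below its own.

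A further 119 genes of the pathway were grouped by role, and 111 of them passed the filter on low values. Without the block 0 of 111 passed in limma, with 10 at an unadjusted p under 0.05 (5.91% of all genes). Also without it, 0 passed in edgeR and 1, Nr0b1, in DESeq2. With the date block 15 of the 111 passed in limma, 13 higher and 2 lower in HN, against 5.46% and 4.02% of all genes, and 17 and 9 passed in edgeR and DESeq2 with the block. The genes named here are up to 4 of each list, those with the largest difference among the genes whose 3 pair differences had 1 sign. Larger differences without 1 sign, such as those of Cdx2 (1.11), Myc (0.67) and Apcdd1 (0.67), did not pass in limma on all 6 libraries. Apcdd1 passed in edgeR with the block (adjusted p = 0.0154). In blocked limma without the third date, Cdx2 (adjusted p = 0.0410), Myc and Apcdd1 (adjusted p = 0.000176) passed, all higher in HN. Nanog, Cdx2, Myc, Apcdd1, Cdh1, Zfp42, Pou5f1, Sox2 and Tubb3 were named after their values were seen. Of the 15, Notum, Esrrb, Nanog, Fzd10, Sfrp4, Chd8, Tle3 and Cdh2 did not pass when the second date was left out (blocked limma adjusted p from 0.0559 to 0.343). Tle3 (adjusted p = 0.167) and Cdh2 (adjusted p = 0.405) did not pass without the first date either, and Nanog (adjusted p = 0.0520) did not without the third. In DESeq2 with the block, Fzd10 (adjusted p = 0.0691), Tle3 (adjusted p = 0.220) and Cdh2 (adjusted p = 0.330) did not pass, and Sfrp4 had no adjusted p.

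Among further Wnt target genes, 3 of 15 tested passed with the block, all higher in HN (5.46% of all genes), and the median log2 difference was 0.33. Cdx1, a caudal homeobox gene, had 139, 189 and 90.3 normalized counts in R1 and 403, 450 and 146 in HN, higher in each pair (1.15, SE 0.13 with the block, limma adjusted p = 8.76e-08). T, the brachyury gene of the primitive streak, had 11.7, 45.1 and 20.2 in R1 and 40.2, 63.1 and 57.4 in HN (1.21, blocked limma adjusted p = 0.00100). Notum, which encodes a secreted enzyme that inactivates Wnt ligands, had 91.6, 89.5 and 102 in R1 and 124, 176 and 152 in HN. All Notum libraries of HN were above those of R1 (0.65, blocked limma adjusted p = 0.00222). In DESeq2 with the block, Cdx1 alone of these 3 passed, and T (adjusted p = 0.0698) and Notum (adjusted p = 0.0538) did not. The 5 mesoderm and primitive streak markers, which include T, summed to 79.8 to 169 normalized counts in R1 and 156 to 262 in HN, and their part in the T values was not tested. Cd44 (log2 difference -0.49) and Nkd1 (-0.40) were lower in HN in all 3 pairs and did not pass. Over the 15 genes, 4 were higher in HN in all 3 pairs and 2 lower, against 2901 and 3018 of all 14276 genes.

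The pluripotency genes that Tcf7l1 is known to repress were higher in HN in every pair, 6 of 6 genes (20.3% of all genes), with a median log2 difference of 0.34. With the block 4 of the 6 passed, all higher in HN, and the same 4 passed in edgeR and DESeq2 with the block, where 5.46%, 6.44% and 2.34% of all genes passed as higher. Nr0b1, which encodes a nuclear receptor of the mESC network, had 205, 303 and 132 normalized counts in R1 and 605, 617 and 318 in HN (1.28, SE 0.11 with the block, limma adjusted p = 2.03e-10), and it passed in DESeq2 without the block too (adjusted p = 0.0109). Tfcp2l1, a self-renewal factor gene downstream of LIF and Wnt signals, had 3744, 3623 and 3091 in R1 and 6216, 5235 and 4162 in HN (0.56, blocked limma adjusted p = 1.64e-05). For both genes all HN libraries were above all R1 libraries. Esrrb (0.37, blocked limma adjusted p = 0.00389) and Nanog (0.28, blocked limma adjusted p = 0.0305) also passed, while Klf2 had 0.31 and did not. Esrrb, Nanog and Tfcp2l1 are also among the 8 mESC markers, of which 5 passed higher and 1 lower with the block. The lower one was Zfp42, a pluripotency marker gene with 2009, 2381 and 1886 normalized counts in R1 and 1061, 1295 and 1272 in HN (-0.79, blocked limma adjusted p = 6.37e-08). The core factor genes Pou5f1 (0.00052) and Sox2 (-0.0021) had log2 differences near 0. Tcf7l1 RNA itself was nearly equal in the lines, as given above.

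Of the secreted and surface inhibitors, 3 of 11 tested passed with the block, 2 higher and 1 lower in HN (5.46% and 4.02% of all genes). Sfrp1, which encodes a secreted Wnt-binding protein, had 179, 112 and 163 normalized counts in R1 and 281, 159 and 288 in HN (0.66, blocked limma adjusted p = 0.000313). Sfrp4, of the same family, went the other way, with 29.8, 42.2 and 24.3 in R1 and 6.08, 9.21 and 15.2 in HN (-1.61, blocked limma adjusted p = 0.00120). Sfrp4 was lower in all HN libraries than in all R1 libraries. Notum, given above, was the other. Dkk3 had a log2 difference of -0.63 and did not pass.

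Few ligands and receptors passed. None of the 16 ligands tested passed with the block in limma (5.46% and 4.02% of all genes passed as higher and lower). An unadjusted p under 0.05 was seen for 1, and the median log2 difference was -0.12. In edgeR with the block 0 passed. DESeq2 with the block gave an adjusted p to Wnt7b only (0.963), so it gives no result for the other ligands. The ligands with the largest differences were low, such as Wnt3a with 2.13 to 14.8 normalized counts in R1 and 9.73 to 16.2 in HN (0.94) and Wnt4, which averaged 8.04 ± 7.05 for R1 against 5.55 ± 6.70 for HN (SD over 3 libraries, log2 difference -0.90). Of 15 receptors, 1 passed with the block, higher in HN, beside 5.46% of all genes. This was Fzd10, with 138, 167 and 125 normalized counts in R1 and 219, 301 and 139 in HN (0.55, blocked limma adjusted p = 0.00564). Genes of ligand secretion and receptor turnover had 0 of 10 passing with the block in limma and edgeR. In limma 2 had an unadjusted p under 0.05. In DESeq2 with the block, Porcn, Lgr4 and Znrf3 alone had an adjusted p, and none of them passed. Wls, the ligand transporter gene, had the largest difference (0.52).

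Of 20 cytoplasmic regulators, 1, Csnk1e, passed with the block in limma and was lower in HN, beside 4.02% of all genes. Csnk1e encodes a casein kinase that acts on Dishevelled, and it had 558, 424 and 239 normalized counts in R1 and 349, 239 and 181 in HN (-0.63, limma adjusted p = 0.000136). Its close relative Csnk1d had a log2 difference of 0.38 and did not pass in limma (blocked adjusted p = 0.0559), but did in edgeR (blocked adjusted p = 0.0321). Of 17 nuclear partners 3 passed with the block, all higher in HN (5.46% of all genes), and their median was 0.15. These were the corepressor genes Ctbp2 (0.53, blocked limma adjusted p = 0.000108) and Tle3 (0.43, 0.0228) and the chromatin remodeller gene Chd8 (0.44, 0.00485), whose product is known to bind beta-catenin. Of 6 catenins and adherens junction partners, which share beta-catenin with the pathway, 1 passed with the block, higher in HN (5.46% of all genes). This was Cdh2 (N-cadherin), at 0.96 (blocked limma adjusted p = 0.0335). Cdh2 had 9.58, 15.5 and 29.7 normalized counts in R1 and 37.7, 22.7 and 42.2 in HN. Cdh1 (E-cadherin) had a mean of 499 in both lines.

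**Figure D5:**
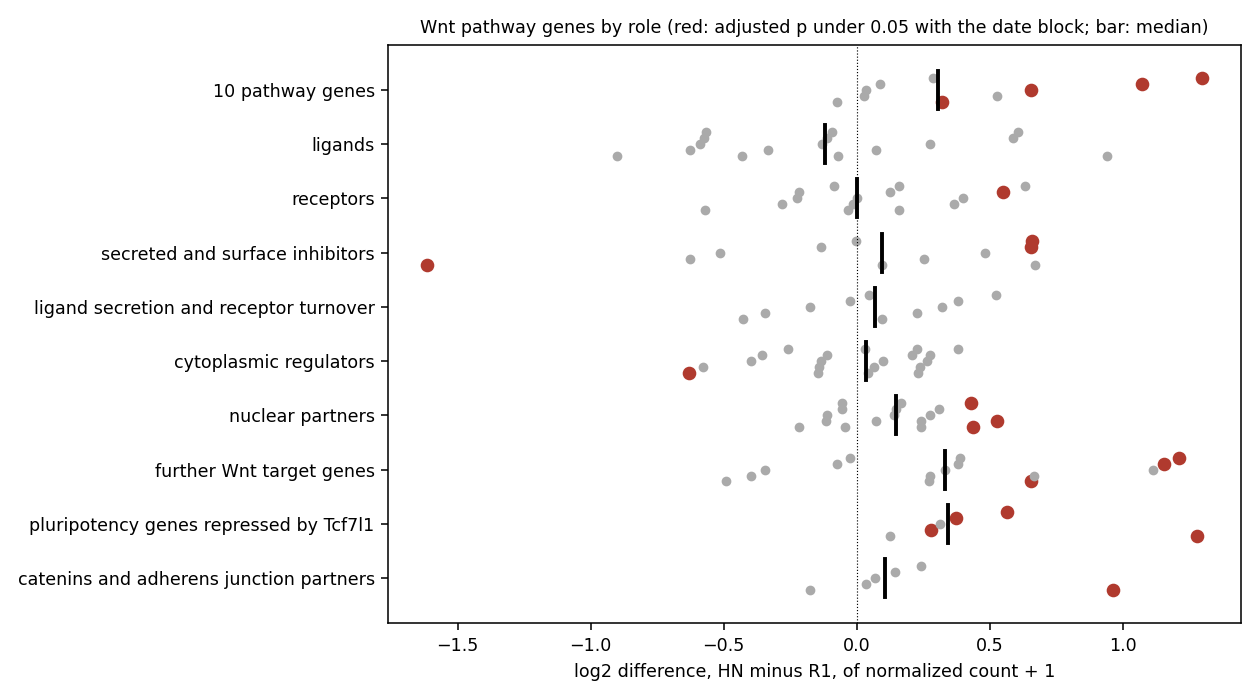
Log2 difference between HN and R1 (x axis, of normalized count + 1, without a block) for each tested gene of the 10 pathway genes and of 9 further lists, with red points for an adjusted p under 0.05 with the date block and black bars for the list's median. The medians of the 10 genes (0.30), the further targets (0.33) and the pluripotency genes (0.34) lie to the right of 0, and that of the ligands (-0.12) to its left.

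The genes with a pattern most like that of Axin2 were sought among 7642 genes with a mean of at least 50, by the root mean square of the log2 differences from Axin2 over the 6 libraries after centring each gene. The closest were Bzw1 (0.180), Smpdl3b (0.183), Sp2 (0.188), Naa60 (0.189) and Foxd3 (0.189). Foxd3, a mESC transcription factor gene, had 38.3, 88.0 and 79.5 normalized counts in R1 and 82.7, 104 and 106 in HN, lowest in the first R1 library as Axin2 was. Of the pathway genes compared, Csnk1d came closest at rank 48 (0.283). Apc (rank 834), Tcf7, Gsk3b, Ctnnb1 and Axin1 lay further off, and Lef1, Sp5, Tcf7l1 and Tcf7l2 were under the level required.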

How the data were processed

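RNA-seq libraries (TruSeq v2, paired-end, HiSeq) were made from R1 (n = 3) and HN (n = 3) mESCs. Per the labels and the methods of the study, the authors used bcl2fastq, STAR to mm10 (GRCm38), removal of duplicates with Picard, HTSeq exon counts and DESeq2. The versions, the annotation and the strand setting are not given in the sources used here. The deposited values are counts divided by size factors, a signal in which 100% of values were whole reads within 0.01 read. Gene names had turned into calendar dates in 27 rows, which were not matched to genes.

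Values were analysed as log2(normalized count + 1) for genes with a mean of at least 5, using limma 3.58.1 (R 4.3.3, with trend) and Benjamini-Hochberg adjustment. A gene passed at an adjusted p under 0.05 and was called if its log2 difference also exceeded 1 in size. The main model had no block, as the methods of the study name none. The labels give same-numbered libraries a shared collection date, so the model with the date as a block is given beside it. Deviations of same-date libraries from their line means correlated across genes (0.25, 0.69 and 0.77). The first R1 library correlated more with the second HN library (0.34) than with its own partner (0.25). Thus the correlations do not single out the first-date pair. The remaining different-date correlations ran from -0.71 to -0.098. Whether libraries of a line came from separate cultures is not stated. Recovered reads were also tested in edgeR 4.0.16 and DESeq2 1.42.0. DESeq2 gave no adjusted p to many list genes with low counts, and these could not pass in it. The scripts were tested on simulated data. Exon lengths, overlaps and positions came from the GRCm38 annotation, and promoters from RefSeq. The 10 genes and the other lists were chosen with earlier results of these data known, so counts over them are descriptions. Named genes were Htt, the 10, any list gene that passed in the main model (0 did), up to 4 per list with the largest differences among genes whose 3 same-date differences had 1 sign, and the 5 genes most like Axin2. Counts of reads cover counting error only.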

Additional observations from a re-analysis of the deposited data

How the results depend on the processing

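With the replicate block, 4 of the 10 genes passed in limma and in edgeR, against 0 without it. In the blocked model, 1 passed without the first date, 1 without the second and 4 without the third, and the blocked alternatives without a date were chosen after seeing the data. Leaving out single libraries without the block left 0 passing. Of the other list genes (0 without the block), 15 passed with it, 17 in edgeR and 9 in DESeq2 with it, 1 in DESeq2 without it, 15, 7 and 21 in the blocked model without date 1, 2 and 3 in turn, 1 without the third date and no block, and 0 to 2 without single libraries. Over all tested genes 35 were called, 278 with the block, 284 and 127 in edgeR and DESeq2 with it, 80 in DESeq2 without it, 291, 180 and 380 in the blocked model without date 1, 2 and 3 in turn, and 9 to 56 without single libraries.

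For the third date, 2208 genes were called, 144 with a mean of at least 50, 3377 with no filter, 858 with a pseudocount of 10 and 741 to 2783 without single libraries. Of the 10 genes 4 passed, 1 with a mean of at least 50, 2 with no line term and 1 to 5 without single libraries. The filter at 50 left fewer genes to test, and Tcf7l1, Tcf7l2 and Sp5 had lower means and were not tested there. Sp5 ranged from -0.061 to 1.67 without single libraries. The change of the line difference passed for 21 genes, 54 after median centring, 12 with a pseudocount of 0.1, 11 with one of 10, and 0 in limma with no filter, where 1944 had an unadjusted p under 0.05. The cause of these changes was not tested.

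Several differences that had not passed changed sign, among them those of Wnt4 (-0.90) and Wnt5a (0.61). Without single libraries the log2 difference ranged from -0.0031 to 0.069 for Ctnnb1, -0.28 to 0.079 for Axin1, -0.29 to 0.35 for Tcf7l1, -1.80 to 0.10 for Wnt4, -0.040 to 1.13 for Wnt5a, -0.20 to 0.93 for Porcn, -0.84 to 0.15 for Nkd1, -0.93 to 0.0030 for Cd44, -0.022 to 0.44 for Ctnnd1 and -0.14 to 0.42 for Jup. With the block and without the first date it was 0.034 for Axin1, -0.0011 for Gsk3b and -0.039 for Tcf7l1. Axin2, Apc, Lef1, Tcf7, Tcf7l2 and Sp5 kept their sign between the lines in all alternatives run. The depth limits Lef1, Sp5, Tcf7l1 and Tcf7l2 most, as these had 5 to 82 reads per library.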
